A study of Mus musculus with 10 samples.

Results

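The genes described here are 36 genes of the hypoxia-inducible factor (HIF) pathway: the HIF subunits, the enzymes that mark them for degradation, and target genes that lie outside glycolysis. They were found by name among the 25965 features of the deposited table, and all 36 were present. Of these, 3 encode HIF subunits, 5 encode oxygen sensors or the degradation factor Vhl, and 28 are targets. The targets comprise 2 secreted signals, 5 enzymes of collagen and disulfide formation, 6 mitochondrial or mitophagy proteins, 3 histone demethylases, 5 transcription regulators and 7 genes of pH, glycogen or other roles. The genes and the lists used below were chosen with earlier results of these data known. Of the 36 genes, 32 passed the filter on low values and were tested.

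HIF is a transcription factor made of an oxygen-labile alpha subunit (Hif1a or Epas1, also called HIF-2 alpha) and a stable partner (Arnt). When oxygen is available, prolyl hydroxylases (Egln1, Egln2 and Egln3) modify the alpha subunit, the ubiquitin ligase subunit Vhl binds it, and it is degraded. The asparaginyl hydroxylase Hif1an in addition blocks its activity. When oxygen is short, the alpha subunit persists and switches on genes of blood vessel growth, collagen processing, mitophagy, pH balance and feedback control, among them Egln1 and Egln3. Control of the alpha subunits is therefore mostly at the protein level, which RNA-seq does not measure. Pluripotent stem cells are known to use glycolysis, to an extent that differs between their states, and HIF is a known activator of that pathway.

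RNA-seq was performed on male C57/Bl6 mouse embryonic stem cells (mESCs) from 2 lines that had been derived independently under Keniry2022 conditions and were divided at p0. Each was then kept in 2i medium, which holds mESCs in the naive state, for 10 or 20 passages under Keniry2022 or Mulas2019 conditions, giving p0, p10 Keniry2022, p20 Keniry2022, p10 Mulas2019 and p20 Mulas2019, with 2 libraries in each group. Keniry2022 cells grow in suspension on untreated plastic at higher density, in more medium, with daily passaging and in a low-oxygen incubator, whereas Mulas2019 cells attach to gelatin, are passaged less often and, as the study lists its methods, are kept at ambient oxygen. These features of culture change together between the methods, so their parts in any difference cannot be told apart, and the 4 libraries of a method are 2 lines at 2 passages. p20 Keniry2022 and p10 Mulas2019 are matched in days of culture. No library holds a treatment with an oxygen level alone, and the oxygen at the cells was not measured.

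Library totals lay between 24053996 and 30236823 reads. The p0 pair stood apart, with an SD of the log2 difference within the pair of 0.611, against 0.230 to 0.265 in the other 4 groups. The lines are male, and the study describes loss of the Y chromosome in a single line at derivation, so that Y-linked reads tell the lines apart. Summed reads of Y-linked genes were 13 to 132 in replicate 1 and 4578 to 8140 in replicate 2 of p0, p10 Keniry2022 and both Mulas2019 groups. In p20 Keniry2022 they were 6659 in replicate 1 and 48 in replicate 2, the opposite of the other groups, so by this mark its replicate numbers name the lines the other way round. Of 10 naive mESC markers, all were tested and none was under 1 RPKM in every library, with a summed level of 1536 to 1667 RPKM under Keniry2022, 1415 to 1437 under Mulas2019 and 1622 to 1902 at p0. All 7 fibroblast markers were under 1 RPKM in every library, as were 4 of 6 primitive endoderm markers, 4 of 7 trophectoderm markers and 2 of 4 endothelial markers.

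Most HIF targets were lower in Keniry2022 than in Mulas2019 cells. With p10 and p20 pooled (4 libraries against 4), 25 of the 32 tested genes passed the test (limma adjusted p under 0.05), 21 lower and 4 higher under Keniry2022. Over all features tested, 51.5% passed, 25.5% lower and 25.9% higher. In the model of all 10 libraries, which includes the p0 pair, 16 genes passed and 19.2% of features did. Hif1a, Egln2, Adm, Ero1l, Higd1a, Kdm3a, Ankrd37, Ppp1r3c and Mif then lost their calls at the same differences, with an adjusted p between 0.0531 and 0.267. In bulk RNA, fewer cells that express a gene and less RNA in each cell cannot be told apart. The median log2 difference, Keniry2022 minus Mulas2019, was -0.37 over the 32 genes and 0.00 over all 11654 features. Among the 24 targets tested, 19 were lower, 1 was higher and 4 did not pass, with a median of -0.66, whereas the 8 genes of the HIF subunits, sensors and Vhl had 3 higher, 2 lower and 3 not passing, and a median of 0.04. The 19 include Ppp1r3c, which met the filter on low values through the Mulas2019 libraries, where it was higher. In 17 of the 32 genes all 4 Keniry2022 libraries lay below all 4 Mulas2019 libraries, which held for 23.4% of the features tested. In 3 genes (Hif1a, Egln2 and Kdm3a) they all lay above, which held for 23.1%. For each of these 20 genes the exact permutation test over the 8 libraries (two-sided) gave p = 0.0286, the smallest value that the 70 splits allow. Groups that do not overlap always give this value, so the test adds nothing to the lack of overlap. Like the pooled limma fit, the permutation test treats the 4 libraries of a method as independent, although they are 2 lines at 2 passages.

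**Figure D1:**
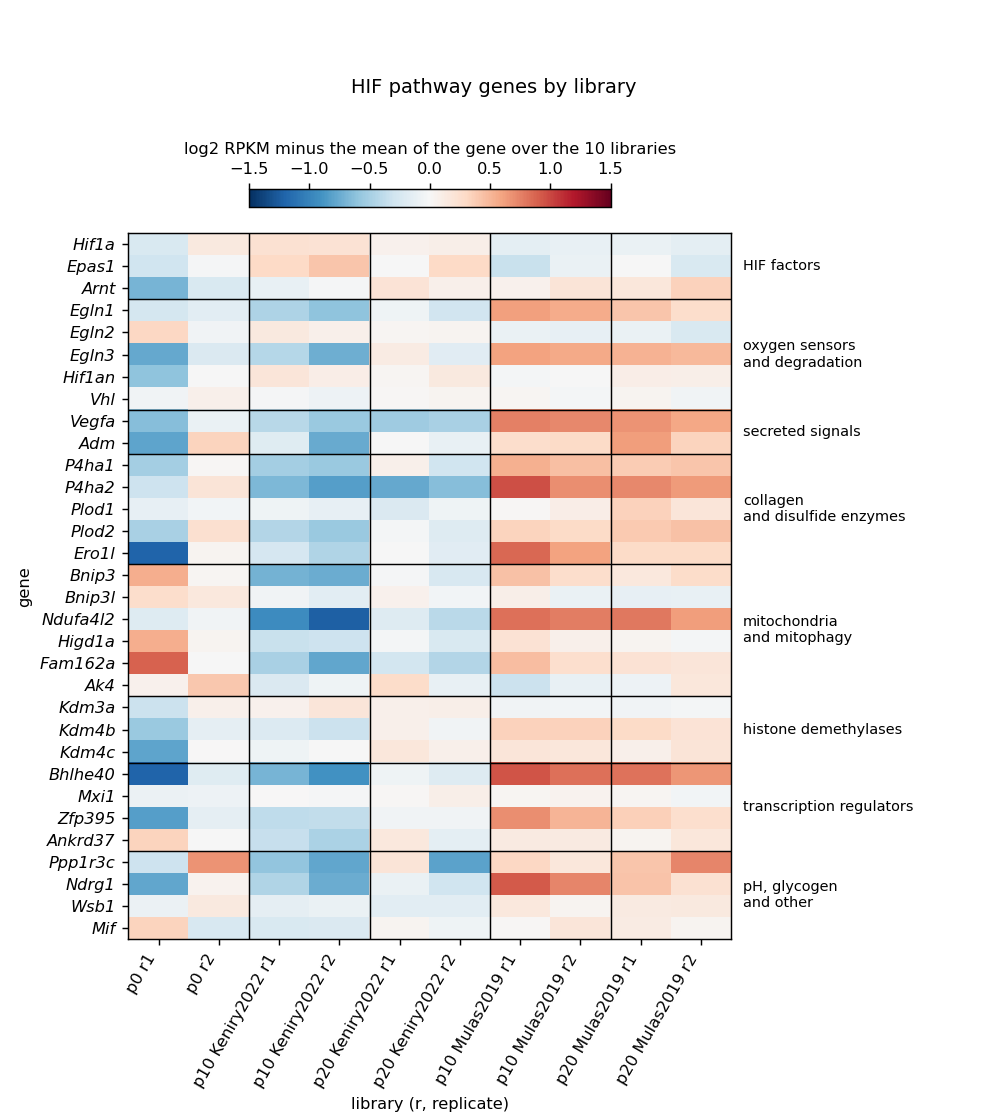
Log2 RPKM of the 32 tested genes (rows, grouped by role) in each of the 10 libraries (columns), as the difference from the mean of the gene over all libraries, from blue (lower) to red (higher). The 4 Mulas2019 columns are red for most targets, and the p10 Keniry2022 columns are mostly blue, down to Ndufa4l2 at 6.28 RPKM in p10 Keniry2022 replicate 2.

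HIF binds DNA at a short core sequence, ACGTG or GCGTG. Promoter windows from RefSeq (build GRCm38.p6, 250 bases before to 50 after a transcription start) were present for 28 of the 36 genes, Ero1l under its RefSeq name Ero1a, and were not present for Epas1, Plod2, Bnip3l, Ndufa4l2, Kdm4b, Bhlhe40, Zfp395 and Ndrg1. On either strand, ACGTG was in 22 of the 39 windows of these genes (56.4%) and in 19.6% of all 32851 windows, and GCGTG was in 24 (61.5%) and in 32.4%. At least 1 core was in 76.9% of the windows of the set and in 43.8% of all windows, while the median GC content was 64.3% and 52.7%, so base composition moves with this difference and its part was not tested. At least 1 core was present in a window of all 15 genes with a window that were lower under Keniry2022, of all 3 that were higher, of 4 of the 6 that did not pass the test and of 3 of the 4 that were not tested.

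The bases before the start are shown for 6 genes that were lower under Keniry2022 and in which these bases lie outside annotated exons. The bases after the start were not checked for this. They show how the cores are placed in genes that moved together. Plod1 and Mif also met this rule but are not shown, with 1 and 0 cores in the bases before the start. A second window of Wsb1 (chr11:79243025-79243274, within the span of the gene) met it too, held 0 cores and is not shown. Capitals mark ACGTG or GCGTG on the strand shown, or their reverse complements CACGT and CACGC, and a run of 6 capitals is a core read on both strands. The positions are chr10:59323046-59323295 (P4ha1, plus strand), chr11:54100674-54100923 (P4ha2, plus, intronic within the annotated span of the gene), chr12:54203875-54204124 (Egln3, minus), chr7:110627407-110627656 (Adm, plus, within the span of the feature Gm28863 but outside its exons), chr11:79254696-79254945 (Wsb1, minus) and chr17:46032378-46032627 (Vegfa, minus).
P4ha1: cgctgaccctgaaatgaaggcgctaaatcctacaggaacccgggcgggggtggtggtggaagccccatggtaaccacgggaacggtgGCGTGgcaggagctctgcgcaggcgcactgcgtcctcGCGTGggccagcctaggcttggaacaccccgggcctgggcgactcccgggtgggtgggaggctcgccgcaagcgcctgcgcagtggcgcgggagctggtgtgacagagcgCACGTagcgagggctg
P4ha2: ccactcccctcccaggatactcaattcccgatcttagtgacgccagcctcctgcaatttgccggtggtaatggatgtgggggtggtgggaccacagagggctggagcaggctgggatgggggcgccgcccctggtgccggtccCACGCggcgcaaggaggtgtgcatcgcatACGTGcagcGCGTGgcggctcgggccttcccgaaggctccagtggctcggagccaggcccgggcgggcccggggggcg
Egln3: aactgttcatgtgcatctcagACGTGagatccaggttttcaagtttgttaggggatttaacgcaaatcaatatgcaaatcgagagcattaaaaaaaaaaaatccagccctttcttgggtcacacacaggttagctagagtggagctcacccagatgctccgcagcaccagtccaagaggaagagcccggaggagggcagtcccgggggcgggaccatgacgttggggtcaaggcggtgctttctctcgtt
Adm: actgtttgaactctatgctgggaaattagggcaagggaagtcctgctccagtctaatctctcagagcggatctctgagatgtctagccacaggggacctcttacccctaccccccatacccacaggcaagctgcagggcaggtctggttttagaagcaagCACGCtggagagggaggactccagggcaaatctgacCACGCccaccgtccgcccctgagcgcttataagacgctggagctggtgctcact
Wsb1: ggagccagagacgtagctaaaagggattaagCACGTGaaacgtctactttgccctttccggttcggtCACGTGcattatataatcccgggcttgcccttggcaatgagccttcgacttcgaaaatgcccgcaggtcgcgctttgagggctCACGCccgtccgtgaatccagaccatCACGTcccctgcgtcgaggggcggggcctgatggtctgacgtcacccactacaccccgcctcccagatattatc
Vegfa: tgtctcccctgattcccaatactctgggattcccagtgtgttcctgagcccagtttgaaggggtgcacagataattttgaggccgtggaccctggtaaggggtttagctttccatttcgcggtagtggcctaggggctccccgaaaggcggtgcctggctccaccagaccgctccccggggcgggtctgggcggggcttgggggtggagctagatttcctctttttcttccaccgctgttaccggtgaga
There are 3 cores in each of the P4ha1 and P4ha2 stretches, 2 in Adm, 1 in Egln3 and 6 in Wsb1, where 2 pairs are read on both strands. The Vegfa stretch before the annotated start of the gene holds none of these letters, although this gene had the smallest p of the set. A second RefSeq window of Vegfa, in which the bases before the start lie mostly in exons, held 2.

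The alpha subunits were somewhat higher under Keniry2022. Hif1a was at 23.0 and 29.6 RPKM at p0, at 31.3 and 31.1 (p10) and 28.0 and 28.5 (p20) under Keniry2022, and at 24.3 and 24.9 (p10) and 24.9 and 24.2 (p20) under Mulas2019. The methods did not overlap, with means of 29.7 ± 1.72 and 24.6 ± 0.384 RPKM (SD, n = 4), a log2 difference of 0.27 (SE 0.0446) and an adjusted p of 0.000784, which was 0.0531 in the model of all 10 libraries. Exons of Hif1a overlap the antisense feature Gm15283, and whether reads were counted by strand is not given in the sources used here. Epas1 was at 8.68 and 10.5 RPKM at p0, at 13.1, 14.1, 10.6 and 13.04 in the p10 and p20 Keniry2022 libraries, and at 8.42, 9.90, 10.6 and 9.06 in the p10 and p20 Mulas2019 libraries. It was higher under Keniry2022 by 0.42 on the log2 scale (SE 0.0955, adjusted p = 0.00472), but p20 Keniry2022 replicate 1 overlapped the Mulas2019 range. The partner Arnt was lowest at p0 (7.34 and 10.2 RPKM), at 11.0, 11.8, 13.7 and 12.6 under Keniry2022 and at 12.4, 13.6, 13.4 and 15.2 under Mulas2019. The methods overlapped for Arnt, and the difference of -0.15 (95% interval -0.32 to 0.02, adjusted p = 0.115) did not pass.

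The oxygen sensors differed in direction. Egln1, the main prolyl hydroxylase, was at 12.1 and 13.04 RPKM at p0, at 10.6, 9.61, 13.9 and 11.9 under Keniry2022 and at 22.2, 21.3, 19.4 and 17.5 under Mulas2019, with p10 before p20 in each case. Every Keniry2022 library was below every Mulas2019 library, and the log2 difference was -0.81 (SE 0.112, adjusted p = 0.000313), a 1.76-fold lower level. Egln3, the most inducible of the 3 hydroxylases, was at 12.9 and 18.9 RPKM at p0, at 16.4, 13.3, 24.1 and 19.6 under Keniry2022 and at 33.5, 32.7, 31.5 and 30.8 under Mulas2019. It also did not overlap between the methods, and differed by -0.84 (SE 0.145, adjusted p = 0.00102). Egln2, which is not known as a HIF target, was at 18.0 and 14.0 RPKM at p0, at 15.99, 15.2, 14.8 and 14.8 under Keniry2022 and at 13.4, 13.2, 13.4 and 12.4 under Mulas2019. Its direction was the opposite of Egln1 and Egln3, with a log2 difference of 0.21 (SE 0.0448, adjusted p = 0.00303) and groups that did not overlap, but it did not pass in the model of all 10 libraries (adjusted p = 0.117). Exons of Egln2 overlap the feature Cyp2t4.

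Hif1an and Vhl did not pass the test. Hif1an was at 7.92 and 12.03 RPKM at p0, at 13.7, 12.9, 12.3 and 13.3 under Keniry2022 and at 11.8, 12.1, 12.9 and 12.9 under Mulas2019, a log2 difference of 0.08 (95% interval -0.03 to 0.18, adjusted p = 0.219). Vhl was between 15.98 and 17.8 RPKM in all 10 libraries: 16.3 and 17.8 at p0, 16.7, 15.98, 17.1 and 17.4 under Keniry2022, and 17.2, 16.5, 17.4 and 16.3 under Mulas2019. Its log2 difference was -0.01 (95% interval -0.10 to 0.09, adjusted p = 0.929), so a difference larger than 0.10 in either direction lay outside the interval.

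**Figure D2:**
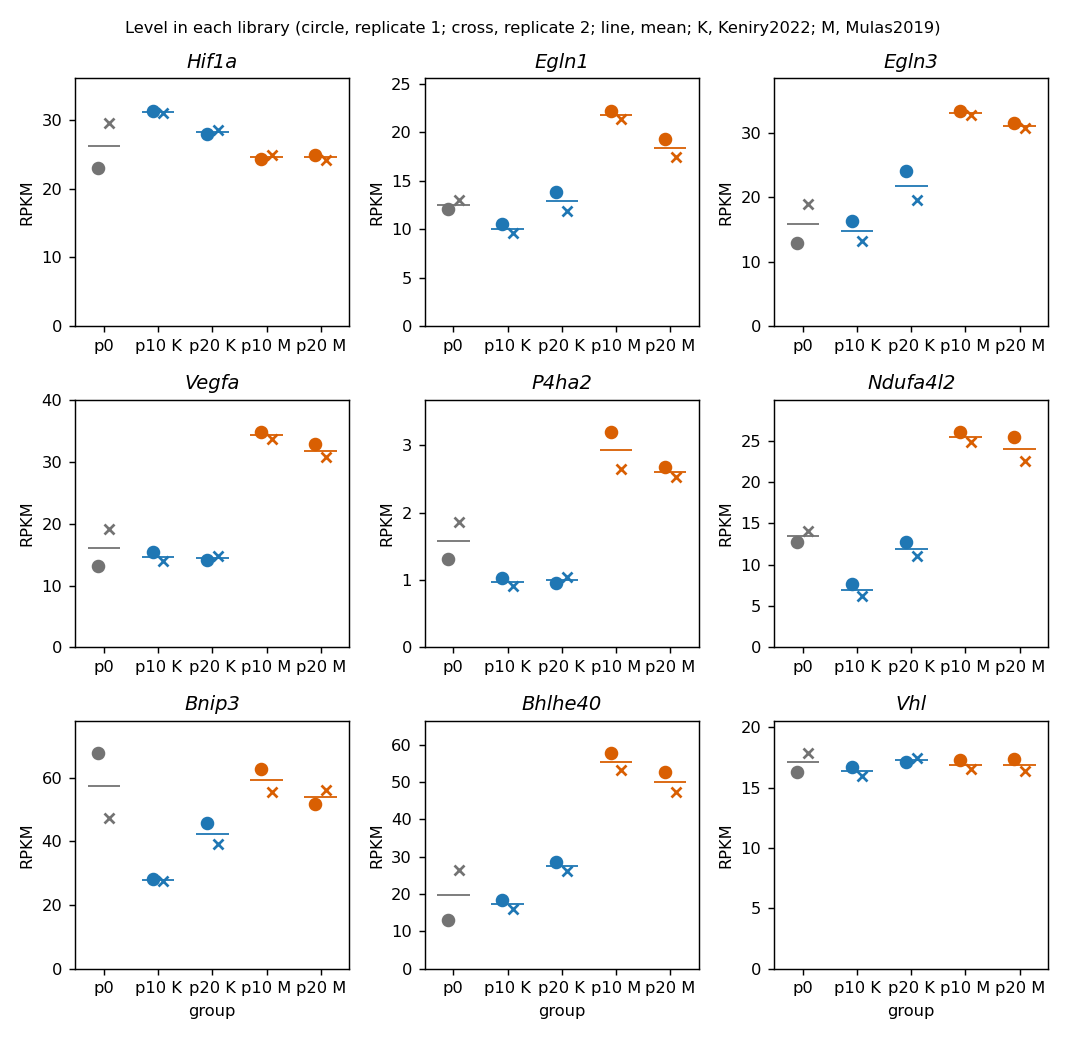
RPKM of 9 genes in each library (circle, replicate 1; cross, replicate 2; line, mean of the group), with the 5 groups on the horizontal axis. Vegfa, P4ha2, Ndufa4l2, Bhlhe40, Egln1 and Egln3 show 4 Mulas2019 points above all 4 Keniry2022 points, Hif1a shows the reverse, and Vhl lies between 15.98 and 17.8 RPKM throughout.

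Both secreted signals were lower under Keniry2022. Vegfa, the growth factor that drives vessel formation, was at 13.2 and 19.1 RPKM at p0, at 15.4, 14.0, 14.2 and 14.7 in the p10 and p20 Keniry2022 libraries and at 34.9, 33.8, 32.9 and 30.7 in the p10 and p20 Mulas2019 libraries. The means were 14.6 ± 0.671 and 33.1 ± 1.74 RPKM (SD, n = 4), and the log2 difference was -1.18 (SE 0.0495, adjusted p = 3.41e-06), a 2.27-fold lower level under Keniry2022. Adm, which encodes the vasodilator peptide adrenomedullin, was at a low level: 1.32 and 2.89 RPKM at p0, 2.02, 1.35, 2.27 and 2.11 under Keniry2022, and 2.75, 2.80, 3.53 and 2.88 under Mulas2019. The methods did not overlap for Adm, but its p0 libraries spanned more than the whole Keniry2022 range, and the log2 difference was -0.64 (SE 0.157, adjusted p = 0.00674). In the model of all 10 libraries Adm did not pass (adjusted p = 0.102).

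All 5 enzymes of collagen and disulfide formation were lower under Keniry2022, and none overlapped between the methods. P4ha2, a catalytic subunit of collagen prolyl 4-hydroxylase, had the largest difference of the 32 genes: 1.31 and 1.86 RPKM at p0, 1.02, 0.916, 0.955 and 1.04 under Keniry2022, and 3.19, 2.65, 2.68 and 2.53 under Mulas2019. The log2 difference was -1.49 (SE 0.101, adjusted p = 2.45e-05), a 2.80-fold lower level, and both p0 libraries lay between the methods. P4ha1, the other catalytic subunit, was at 14.1 and 20.4 RPKM at p0, at 14.1, 13.7, 21.2 and 16.4 under Keniry2022 and at 29.2, 27.6, 26.3 and 26.9 under Mulas2019, which is a log2 difference of -0.77 (SE 0.117, adjusted p = 0.000522). Plod2, a collagen lysyl hydroxylase, was at 26.5 and 43.9 RPKM at p0, at 27.3, 25.2, 36.2 and 32.4 under Keniry2022 and at 46.6, 45.3, 48.5 and 50.2 under Mulas2019, which is a log2 difference of -0.67 (SE 0.0983, adjusted p = 0.000436). Its relative Plod1 was lower by less, with 2.94 ± 0.147 against 3.58 ± 0.354 RPKM (SD, n = 4), a difference of -0.28 (SE 0.0815, adjusted p = 0.0161) that did not pass after quantile normalization (-0.16, adjusted p = 0.0994). Ero1l, the oxidase that re-forms disulfide donors in the endoplasmic reticulum, was at 11.0 and 26.0 RPKM at p0, at 21.2, 18.5, 25.2 and 22.6 under Keniry2022 and at 46.1, 38.3, 30.9 and 31.0 under Mulas2019. The log2 difference for Ero1l was -0.73 (SE 0.132, adjusted p = 0.00132, or 0.0657 in the model of all 10 libraries), and within Mulas2019 both p10 libraries were above both p20 libraries.

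Of the 6 mitochondrial and mitophagy genes, 4 were lower under Keniry2022 and 2 did not pass. Ndufa4l2, a respiratory chain protein that is known to be induced by HIF, was at 12.8 and 14.1 RPKM at p0, at 7.62 and 6.28 at p10 and 12.7 and 11.1 at p20 under Keniry2022, and at 26.0 and 24.9 at p10 and 25.4 and 22.5 at p20 under Mulas2019. The log2 difference was -1.45 (SE 0.188, adjusted p = 0.000231), and exons of Ndufa4l2 overlap those of Shmt2. Bnip3, a mitophagy receptor, was at 67.6 and 47.3 RPKM at p0, at 28.2, 27.5, 45.7 and 39.1 under Keniry2022 and at 62.9, 55.4, 51.8 and 56.2 under Mulas2019, which is a log2 difference of -0.72 (SE 0.148, adjusted p = 0.00276). Its paralog Bnip3l had means of 25.5 ± 1.60 and 25.2 ± 1.80 RPKM (SD, n = 4) and a log2 difference of 0.02 (95% interval -0.12 to 0.15, adjusted p = 0.822). Fam162a, a mitochondrial protein induced by HIF, was at 274 and 148 RPKM at p0, at 106, 86.8, 123 and 110 under Keniry2022 and at 205, 177, 173 and 170 under Mulas2019, which is a log2 difference of -0.77 (SE 0.0972, adjusted p = 0.0002). Higd1a, which is known to associate with respiratory complexes, was lower by less (-0.30, SE 0.0755, adjusted p = 0.00768, or 0.0997 in the model of all 10 libraries), with 10.7 ± 1.08 and 13.2 ± 0.953 RPKM (SD, n = 4) and overlapping groups. The adenylate kinase Ak4 had 59.2 ± 9.26 and 56.9 ± 8.11 RPKM (SD, n = 4), a difference of 0.06 (95% interval -0.20 to 0.32, adjusted p = 0.712). In p0 replicate 1, Bnip3, Higd1a and Fam162a were above every other library, which did not hold in p0 replicate 2.

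The histone demethylases moved in different directions. Kdm4b was lower under Keniry2022, with 12.3 ± 1.47 against 16.4 ± 0.751 RPKM (SD, n = 4), a log2 difference of -0.43 (SE 0.0782, adjusted p = 0.00148) and no overlap. Kdm3a, which removes methyl groups from lysine 9 of histone H3, was higher, with 79.4 ± 2.95 against 71.6 ± 0.648 RPKM (SD, n = 4) and a difference of 0.15 (SE 0.0341, adjusted p = 0.00504), but after quantile normalization the difference was 0.02 (adjusted p = 0.652), and it did not pass in the model of all 10 libraries (adjusted p = 0.267). Kdm4c did not pass (-0.12, 95% interval -0.23 to 0.00, adjusted p = 0.093). Without p20 Keniry2022 replicate 1, Kdm4c passed at -0.16 (adjusted p = 0.0221) and so did Arnt at -0.21 (adjusted p = 0.0392).

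Of the 5 transcription regulators, 4 were tested and 3 were lower under Keniry2022. Bhlhe40, a repressor that HIF induces, was at 13.02 and 26.4 RPKM at p0, at 18.5, 15.95, 28.6 and 26.2 in the p10 and p20 Keniry2022 libraries and at 57.7, 53.1, 52.6 and 47.4 in the p10 and p20 Mulas2019 libraries. The lowest Mulas2019 library was well above the highest Keniry2022 library, and the log2 difference was -1.28 (SE 0.163, adjusted p = 0.000214). Zfp395, a zinc finger protein, was at 4.01 and 6.46 RPKM at p0, at 5.46, 5.49, 6.84 and 6.83 under Keniry2022 and at 11.5, 10.2, 9.14 and 8.46 under Mulas2019, which is a log2 difference of -0.67 (SE 0.110, adjusted p = 0.00078). Ankrd37 was at 14.6 ± 2.88 and 18.0 ± 0.715 RPKM (SD, n = 4), with overlapping groups and a difference of -0.32 (SE 0.113, adjusted p = 0.0361). That call was lost without any 1 of 6 of the 8 libraries, with differences of -0.34 to -0.23, and in the model of all 10 libraries (adjusted p = 0.0608). The MYC antagonist Mxi1 was at 10.0 ± 0.316 and 10.0 ± 0.286 RPKM (SD, n = 4), a difference of 0.00 (95% interval -0.09 to 0.10, adjusted p = 0.934).

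Of the 7 genes of pH, glycogen and other roles, 4 were tested and all 4 were lower under Keniry2022. Ndrg1, a gene of stress response and differentiation, was at 4.99 and 8.88 RPKM at p0, at 6.28, 5.12, 8.02 and 6.94 under Keniry2022 and at 16.2, 14.3, 11.5 and 10.1 under Mulas2019. The methods did not overlap, and the log2 difference was -0.98 (SE 0.162, adjusted p = 0.000854). Ppp1r3c, which directs a phosphatase to glycogen, was at 0.963 and 1.90 RPKM at p0, at 0.792, 0.701, 1.36 and 0.686 under Keniry2022 and at 1.49, 1.35, 1.59 and 2.00 under Mulas2019. Here p20 Keniry2022 replicate 1 lay just inside the Mulas2019 range, and the difference was -0.90 (SE 0.222, adjusted p = 0.00698, or 0.0555 in the model of all 10 libraries). That library was the only Keniry2022 library with a log2 value above 0, so Ppp1r3c met the filter through the Mulas2019 libraries. Its call as lower is therefore not independent of the filter. Wsb1, a ubiquitin ligase subunit, differed by little but with a narrow spread, at 32.5 ± 0.673 and 38.9 ± 1.44 RPKM (SD, n = 4), a difference of -0.26 (SE 0.0373, adjusted p = 0.000382). Mif, a secreted cytokine, was the most abundant of the 36 genes by mean RPKM over all libraries (164), and differed by -0.21 (SE 0.0635, adjusted p = 0.0187). The call for Mif was lost without p10 Keniry2022 replicate 1 (-0.17), p10 Keniry2022 replicate 2 (-0.18) or p10 Mulas2019 replicate 2 (-0.18), and in the model of all 10 libraries (adjusted p = 0.244).

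The 4 genes that were not tested lay at the lower end of the range. Car9, the carbonic anhydrase that is widely used as a marker of hypoxia, had 6 to 11 reads in each library (0.0884 to 0.197 RPKM). Its relative Car12 had 20 to 128 reads (0.183 to 0.933 RPKM) and the repressor Bhlhe41 had 20 to 49 reads (0.115 to 0.278 RPKM). Selenbp1 had 16 to 50 reads, with 0.335 to 0.528 RPKM in the Keniry2022 libraries and 0.609 to 0.794 in the Mulas2019 libraries, and these ranges did not overlap. By mean RPKM over all libraries, the order from the top was Mif, Fam162a (157), Kdm3a (74.1) and Ak4 (60.6). Mif and Fam162a overlapped in their ranges over libraries, as did Kdm3a and Ak4.

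At each passage taken alone, no gene of the set was higher under Keniry2022 in the model of all 10 libraries. At p10, 11 of 32 were lower (8.53% of features passed): Ndufa4l2, Egln1, P4ha2, Vegfa, Bnip3, Egln3, Bhlhe40, P4ha1, Ndrg1, Zfp395 and Kdm4b, from -1.88 (SE 0.126, Ndufa4l2) to -0.61 (SE 0.136, Kdm4b). The median over the 32 genes was -0.58. At p20, 3 were lower (2.15% of features passed): P4ha2 (-1.38, SE 0.194, adjusted p = 0.0214), Vegfa (-1.14, SE 0.160, adjusted p = 0.0214) and Ndufa4l2 (-1.01, SE 0.126, adjusted p = 0.0208), with a median of -0.33 over the set. Between the groups matched in days, p20 Keniry2022 and p10 Mulas2019, 4 were lower (6.43% of features passed): Vegfa (-1.25), P4ha2 (-1.54), Ndufa4l2 (-1.10) and Egln1 (-0.76).

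These counts moved with the p0 pair, whose spread enters the model. Shares of features are given below for the fits without p0 libraries. They are not given for the fits without a cultured library, so whether the whole table moved alike there is not shown. Without both p0 libraries, 26 genes passed at p10, 5 higher and 21 lower (48.3% of features passed), 20 at p20, 2 higher and 18 lower (36.7%), and 19 between the groups matched for days, 3 higher and 16 lower (43.4%). In the model of all 10 libraries, leaving out p0 replicate 1 or 2 gave 26 or 25 genes at p10 (47.9% or 48.1% of features passed). It gave 20 at p20 with either (36.2% or 36.3%), and 18 between the groups of equal days with either (43.1% for both). Leaving out any 1 of the 8 cultured libraries gave 0 at p20 and between 0 and 9 at p10. The lowest counts at p10 were 0 without p10 Mulas2019 replicate 1, 1 without either p10 Keniry2022 library and 3 without p10 Mulas2019 replicate 2. Between the groups of equal days, leaving out either p20 Keniry2022 library or p10 Mulas2019 replicate 1 gave 0, and leaving out p10 Mulas2019 replicate 2 gave 1.

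**Figure D3:**
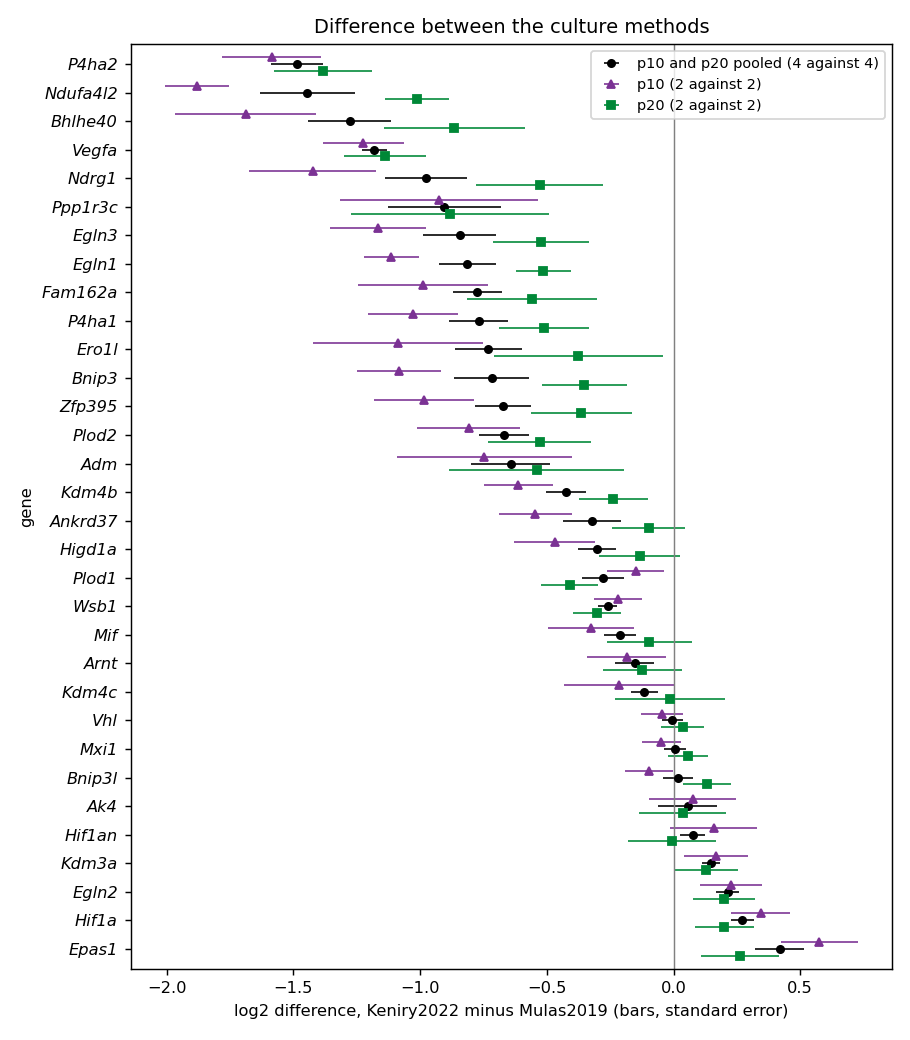
Log2 difference (horizontal axis, Keniry2022 minus Mulas2019) of the 32 tested genes (vertical axis, ordered by the pooled difference), with p10 and p20 pooled (black circles), at p10 (purple triangles) and at p20 (green squares), and bars for the standard error. P4ha2 and Vegfa lie near the same value at both passages, whereas Ndufa4l2, Egln1, Bnip3 and Ndrg1 lie further from 0 at p10 than at p20.

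Within Keniry2022, 24 of the 32 genes were at a higher mean level at p20 than at p10, with a median log2 difference of 0.22 over the set and 0.00 over all features. None passed the limma test (0% of features passed), and 7 had an unadjusted p under 0.05, as did 2.5% of features. These were Ndufa4l2 (0.78), Bnip3 (0.60), Egln1 (0.36), Egln3 (0.56), Ankrd37 (0.42), Bhlhe40 (0.67) and P4ha1 (0.42). In 21 of 32 genes both p20 Keniry2022 libraries were above both p10 Keniry2022 libraries, which held for 22.7% of the features. Within Mulas2019 the median was -0.05, none passed (0% of features) and none had an unadjusted p under 0.05 (6.68% of features). Both p20 Mulas2019 libraries were above both p10 Mulas2019 libraries in 6 of 32 genes, against 27.7% of the features. The reverse held in 13 of 32 genes and in 2949 of the 11561 features. Within Keniry2022 the reverse held in 4 of 32 genes and in 2635 of these features. By the interaction term, which tests whether the difference between the methods changed with passage, none of the 32 genes passed (0% of features passed) and 5 had an unadjusted p under 0.05 (3.5% of features), with Ndufa4l2 at 0.87 (SE 0.179, adjusted p = 1). With library quality weights, Bhlhe40, Bnip3 and Ndufa4l2 passed within Keniry2022 (adjusted p = 0.0219 to 0.0237, 0.346% of features passed). The same 3 genes and Zfp395 then passed by the interaction term (adjusted p = 0.0386 to 0.0486, 0.623% of features passed), with differences between the methods that were closer to 0 at p20. Without both p0 libraries, again none of the 32 genes passed within Keniry2022 (0.0343% of features), within Mulas2019 (2.47%) or by the interaction term (0%), and the adjusted p of Ndufa4l2 was 0.0664 within Keniry2022 and 0.076 for the interaction. With the line as a block as well, the p20 Keniry2022 numbers being crossed, 1 gene passed within each method, Bhlhe40 in Keniry2022 (0.67, SE 0.0770, adjusted p = 0.0386) and Ero1l in Mulas2019 (-0.44, SE 0.0958, adjusted p = 0.0481).

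Against p0, the share of the set that passed in Mulas2019 cells was near that of all features, and nearly all of these genes were higher than at p0. These 4 comparisons share the p0 libraries, and whether they differ from each other was not tested beyond the comparisons of the methods above. In p10 Mulas2019, 12 of 32 genes were higher and none lower (33% of features passed, 15.7% higher and 17.3% lower), with the largest differences for Bhlhe40 (1.58, SE 0.278), Ero1l (1.32, SE 0.335), Ndrg1 (1.19, SE 0.250) and Vegfa (1.11, SE 0.160). In p20 Mulas2019, 10 were higher and 1 lower (29.3% passed, 14.7% higher and 14.6% lower), with Bhlhe40 at 1.43 (SE 0.278), Vegfa at 1.002 (SE 0.160), Egln3 at 0.99 (SE 0.189) and Bnip3l lower at -0.33 (SE 0.0944). Arnt passed in both (0.59 and 0.72), while it did not pass between the methods. In p10 Keniry2022, Ndufa4l2 alone passed, lower by -0.96 (SE 0.126, adjusted p = 0.0426, 0.199% of features passed), and no gene passed without any 1 of the 8 cultured libraries or with the replicate number as a block, crossed or not. In p20 Keniry2022 no gene passed the limma test (0.199% of features passed) and 8 of 32 had an unadjusted p under 0.05, near the 28% of features that did. The medians over the 32 genes were -0.13, 0.03, 0.22 and 0.40 for p10 Keniry2022, p20 Keniry2022, p10 Mulas2019 and p20 Mulas2019.

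**Figure D4:**
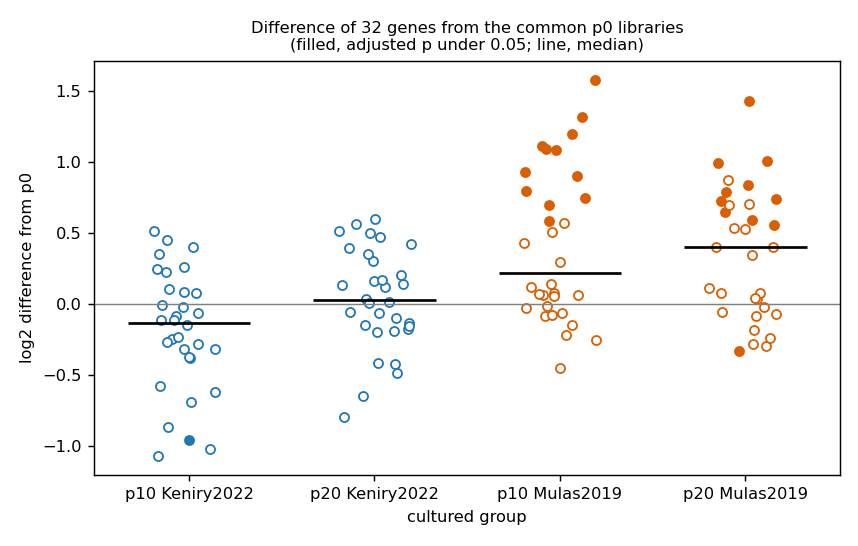
Log2 difference from p0 (vertical axis) of the 32 tested genes in each cultured group (horizontal axis), with filled points for an adjusted p under 0.05 and a line at the median. The medians were -0.13 and 0.03 in the Keniry2022 groups and 0.22 and 0.40 in the Mulas2019 groups, which have 12 and 11 filled points.

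These counts moved with single libraries. Without p0 replicate 1, 10 genes passed in p10 Keniry2022 (5.23% of features), 4 in p20 Keniry2022 (4.61%), 17 in p10 Mulas2019 (40.5%) and 13 in p20 Mulas2019 (37.5%). Without p0 replicate 2, 19 (64.3%), 22 (66.5%), 23 (71.8%) and 25 (71.1%) passed, where the remaining p0 library was assumed to vary like the other groups. Without either library of p10 Mulas2019 the count of that group fell from 12 to 0, and without either library of p20 Mulas2019 that of p20 Mulas2019 fell from 11 to 0. With library quality weights, none of the 32 genes passed in any of the 4. The shares of features without a cultured library and with weights are not given here. Both p0 libraries were below all 4 Mulas2019 libraries in 16 of the 32 genes (28.1% of features) and above them in 2, Egln2 and Bnip3l (26.7% of features).

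Other genes of the pathway were counted from 3 lists. Of 20 glycolytic targets of HIF, 18 were tested, and all 18 were lower under Keniry2022 with p10 and p20 pooled (25.5% of features), with a median of -0.47. Those with the smallest p were Pfkp (-0.51, SE 0.0414), Gapdh (-0.68, SE 0.0730), Slc2a3 (-0.58, SE 0.0665) and Gpi1 (-0.55, SE 0.0846), which act in glucose uptake or glycolysis. Gapdh was at a low level, with means of 4.54 RPKM under Keniry2022 and 7.27 under Mulas2019, against 153 and 230 for Slc2a3. How multi-mapping reads were counted is not given, and its part in the level and difference of Gapdh was not tested. At p10, 14 of them were lower (8.53% of features passed), and at p20 1 was (2.15%). Of 22 other non-glycolytic targets, 16 were tested, and 8 were lower and 3 higher (25.5% and 25.9% of features), with a median of -0.17. The 8 include Stc1 and Loxl2, which met the filter through the Mulas2019 libraries, with Keniry2022 means of 0.503 and 0.735 RPKM. Their calls as lower are therefore not independent of the filter. At p10 6 of 15 were lower (8.53% of features passed in either direction), and at p20 4 of 15 (2.15%). The lipoprotein receptor Vldlr (-1.54, SE 0.132), the glycogen synthase Gys1 (-0.71, SE 0.0610), the mTOR inhibitor Ddit4 (-1.11, SE 0.0974) and the glycoprotein hormone Stc2 (-1.12, SE 0.130) had the smallest p.

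Of 17 other regulators of HIF, 14 were tested, and 6 were higher and 4 lower under Keniry2022 (25.9% and 25.5% of features), with a median of 0.04. At p10 1 was lower (8.53% of features passed in either direction), and at p20 none passed the limma test (2.15%). Tceb1 (0.48, SE 0.0612), which encodes elongin C, and Rbx1 (0.28, SE 0.0490) belong to the ligase that contains Vhl, and both were higher. Siah1b (0.35, SE 0.0429), a ubiquitin ligase, was higher, and the HIF coactivator Ep300 (-0.32, SE 0.0555) was lower. Summed trophectoderm and endothelial markers were also lower under Keniry2022, and each sum was led by 1 gene. Of the trophectoderm list, Tfap2c and Krt18 are also expressed in naive mESC cultures. Summed trophectoderm markers were at 24.2 to 28.2 RPKM under Keniry2022 and 30.1 to 36.8 under Mulas2019, led by Tfap2c, with Gata3, Elf5, Cdx2 and Krt8 under 1 RPKM in every library and all 3 tested markers lower under Keniry2022. Of these 3, Krt18 met the filter through the Mulas2019 libraries, as p20 Keniry2022 replicate 2 was the only Keniry2022 library above 1 RPKM. Summed endothelial markers were at 37.8 to 40.2 and 48.2 to 54.2 RPKM, led by Pecam1, which mESCs are known to express, with Cdh5 and Emcn under 1 RPKM. Tek, the other endothelial marker tested, did not pass (-0.02, limma adjusted p = 0.899). Summed formative and primed markers went the other way, at 39.1 to 48.1 and 27.9 to 34.4 RPKM, led by Dnmt3b, with Fgf5, Otx2 and T under 1 RPKM in every library. Summed primitive endoderm markers were at 1.63 to 2.33 and 2.03 to 2.59 RPKM, and summed fibroblast markers at 0.425 to 0.911 and 0.369 to 0.539. The part of these lists in the differences of the HIF genes was not tested.

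**Figure D5:**
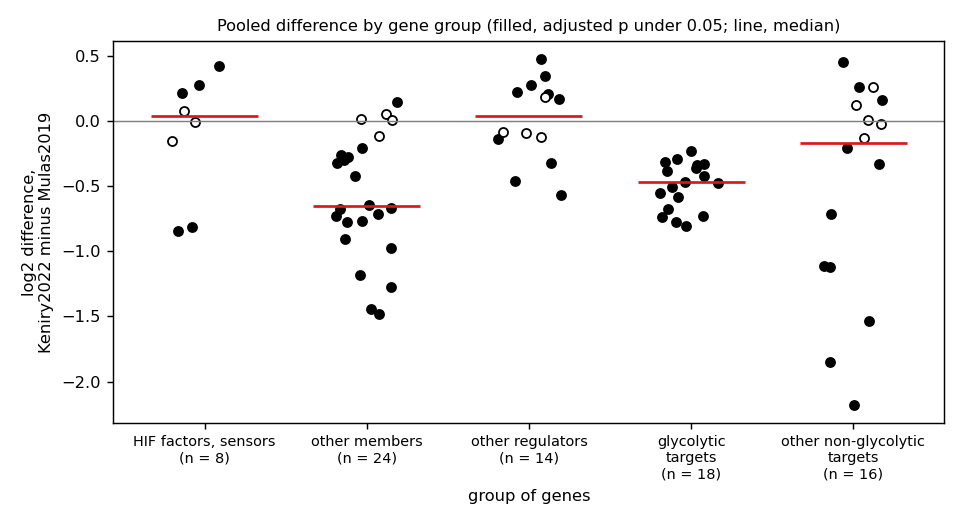
Log2 difference with p10 and p20 pooled (vertical axis, Keniry2022 minus Mulas2019) for 5 groups of tested genes (horizontal axis), with filled points for an adjusted p under 0.05 and a red line at the median. The medians were 0.04 for the HIF subunits, sensors and Vhl, -0.66 for the targets of the set, 0.04 for other regulators, -0.47 for glycolytic targets and -0.17 for other non-glycolytic targets.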

How the data were processed

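The authors trimmed the single-end reads with trim_galore and quantified them in SeqMonk, and the deposited values are log2 RPKM (reads scaled to gene length and library total), with 0 reads entered as 0.9 reads by the authors. The study names HISAT2 as its aligner, whereas TopHat2 2.0.12, with build mm10, stands in the processing notes of the submitters. For strand, annotation release and multi-mapping reads, the setting is not given in these sources. Read numbers and totals were recovered from the values, and 9 of the 36 genes have exons that overlap another feature.

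Differences were fitted with limma 3.58.1 in R 4.3.3 (trended variance, two-sided) on the deposited values, with p-values adjusted by Benjamini-Hochberg over every feature whose log2 value exceeded 0 in 50% or more of the fitted libraries, at a threshold of 0.05. No pseudocount was added. The pooled comparison used 8 libraries, and the others a model of 5 groups and 10 libraries. The pooled fit held no term for line or passage, and the model of 5 groups held none for line. Pooled SE, intervals and p-values therefore treat the libraries of a method as independent, although they are 2 lines at 2 passages. The study pooled passages in a count model, which these values replace with limma. In data simulated for the pooled comparison (11533 features), 90% of genes changed by 0.5 and 98% of those changed by 1 were recovered. At p10 alone 76% of genes changed by 0.5 were recovered, and at p20 alone 71%. The simulation drew independent noise with the spread within the cultured groups, and held no line or passage effect and no p0 spread. It therefore does not measure recovery where these are present. Alternatives were other filters, centring, quantile normalization, a pseudocount, weights, blocks, leaving out p0 and leaving out each library. Values in every library were given for called genes with a pooled difference of at least 0.5, HIF subunits, sensors and Vhl. At most 4 genes were named per other list by smallest p, apart from those named for the filter. The genes, lists and tests were chosen with earlier results of these data known. The replicate numbers mark the 2 lines in 4 groups and are opposite in p20 Keniry2022, by Y-linked reads and by the deviations of libraries. No source says that the replicates are separate cultures beyond the lines, so p-values measure the spread between these samples. Tables used Python 3.11.15 and matplotlib 3.10.9.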

Additional observations from a re-analysis of the deposited data

Results flagged for a closer look

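Among 64 sets of 4 libraries (1 gene in 1 method), 2 held a library whose gap to the nearest other exceeded Dixon's 95% value, where about 1 set in 20 does so by chance. Bnip3l was at a log2 RPKM of 4.8 in p10 Mulas2019 replicate 1, and the nearest other Mulas2019 library was at 4.62. Kdm4c was at 4.6232 in p20 Mulas2019 replicate 1, below the nearest other library at 4.72. Neither gene passed the pooled test.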

How the results depend on the processing

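Pooled over passages, 25 genes passed, 16 in the model of all 10 libraries and 23 to 27 without any 1 library. At p10, 25 passed with library quality weights, 26 without p0, 27 without p0 with the crossed block, and 0 to 26 without 1 library. At p20 these were 19, 20, 20 and 0 to 20, and between p20 Keniry2022 and p10 Mulas2019 18, 19, 20 and 0 to 18, with 8 after quantile normalization. For p10 Keniry2022 against p0, 0 passed with a log2 value above 2, with no filter, with weights or with either replicate block, 2 after quantile normalization, and 0 to 19 without 1 library. Against p0, p20 Keniry2022 gave 0 to 22 without 1 library, p10 Mulas2019 0 with weights and 0 to 23 without 1 library, and p20 Mulas2019 7 with no filter, 0 with weights and 0 to 25 without 1 library. Between passages, weights gave 3 within Keniry2022 and 4 for the interaction, and without p0 the crossed block gave 1 within each method. The cause was not tested. Where no share of all features stands beside a count, here or above, whether the whole table moved alike is not shown.

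Replicate numbers paired the samples of 4 groups, with correlations of deviations of 0.17 to 0.63, and were opposite in p20 Keniry2022, at -0.70 to -0.12. With the replicate block 25 genes passed in the pooled comparison, 11 at p10, 3 at p20 and 4 for equal days, and of all these counts it changed that of p10 Keniry2022 against p0 alone, from 1 (Ndufa4l2) to 0. Crossing the p20 Keniry2022 numbers, an alternative chosen after seeing the data, gave 25, 11, 3 and 4.

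Differences that changed sign belonged to genes that had not passed in the comparison concerned. In the pooled comparison they were Vhl with median centring (0.0077), Bnip3l and Ak4 after quantile normalization (-0.057 and -0.060) and Mxi1 with weights (-0.0041). At p10 it was Ak4 after quantile normalization (-0.034). At p20 they were Hif1an and Kdm4c with median centring (0.011 and 0.0027), and Vhl, Ak4 and Kdm3a after quantile normalization (-0.0019, -0.087 and -0.0084). Without 1 library the pooled ranges were -0.023 to 0.019 for Vhl, -0.019 to 0.067 for Bnip3l, -0.047 to 0.14 for Ak4 and -0.017 to 0.017 for Mxi1. At p10 Ak4 ranged from -0.032 to 0.18. At p20 the ranges were -0.062 to 0.049 for Hif1an, -0.0083 to 0.079 for Vhl, -0.16 to 0.23 for Ak4, -0.070 to 0.040 for Kdm4c and -0.25 to 0.052 for Ankrd37. Genes with few reads, such as Car9 at 6 to 11, are limited by depth.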
